A study of Mus musculus with 6 samples.

Results

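Transcripts of 10 genes of the BCL2 family, the proteins that decide whether the outer mitochondrial membrane stays intact, were followed in WT and Lsm14b-KO mouse oocytes. The 10 genes were fixed by name and were read from the 24255 genes of the deposited expression table, in which all 10 had a row. They were the pro-survival genes Bcl2l10, Bcl2, Bcl2l1 and Mcl1, the effectors Bax, Bak1 and Bok, and the BH3-only genes Bid, Bbc3 and Bcl2l11. Each library was made from 20 GV-stage fully-grown oocytes (FGOs, large oocytes arrested in prophase of meiosis with an intact germinal vesicle), with 3 WT and 3 Lsm14b-KO libraries. All donors had received 5 IU of PMSG 46 h before collection, on a C57BL/6J background, and their age is not given in the labels. Lsm14b-KO females were homozygous for Lsm14b tm1a(KOMP)Mbp, a reporter-tagged insertion that is carried by every tissue and not by the oocyte alone. The labels do not say whether the libraries of a group came from separate mice, so p-values measure only the spread between these libraries, which may be technical.

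Proteins of the BCL2 family share short BCL2 homology (BH) motifs and set the threshold of the mitochondrial pathway of apoptosis. The effectors BAX and BAK form pores in the outer mitochondrial membrane and let cytochrome c out, the pro-survival members hold the effectors in check, and the BH3-only members relay stress signals by binding the pro-survival members or the effectors. Oocytes rely on this balance from the first formation of follicles onward, since many of them are lost by apoptosis. A GV-stage FGO makes little new RNA and lives on stored maternal transcripts, which LSM14B, a cytoplasmic RNA-binding protein, associates with. Many stored transcripts carry a cytoplasmic polyadenylation element close to the polyadenylation signal at their 3′ end, a sequence through which the tail can be lengthened when the oocyte resumes meiosis.

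Bcl2l10 codes for the pro-survival protein also known as DIVA or BOO, which in mice is found mainly in oocytes and other gonadal cells. The gene lies on chromosome 9, from 75347758 to 75351632 on the plus strand (GRCm38, the assembly also called mm10), with 2 exons, a transcript of 1220 nt and a coding sequence of 573 nt. No other annotated gene overlaps it, and no other annotated transcript matched it at 95% identity over 200 nt. Shorter matches and unannotated copies were not searched for. The coding part of its second exon, chr9:75351011-75351133 on the plus strand, is shown because nearly all of the family's signal came from this gene, with the stop codon in capitals.
Bcl2l10: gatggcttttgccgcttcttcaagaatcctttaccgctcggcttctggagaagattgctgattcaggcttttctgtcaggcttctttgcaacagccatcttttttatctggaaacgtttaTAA

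The 3′ ends of the 5 family transcripts with a value in at least 5 of the 6 libraries are shown next. The transcript that passed the test, Bcl2l10, can so be set beside Bcl2l1 and Bax, which did not pass, and Mcl1 and Bcl2l11, which were not tested. Each line is the 30 nt of the GENCODE vM21 transcript that ends with its last AATAAA polyadenylation signal, and capitals mark that signal and any TTTTAAT or TTTTAT, the forms of the polyadenylation element that were searched for on the transcript strand.
Bcl2l10: catTTTTAATaacttcaaattcttAATAAA
Bcl2l1: gtgaaggtgaaagtgcagttcagtAATAAA
Mcl1: aacttctgtttcttctgaagagaaAATAAA
Bax: ggaatggtggcctggggaggcgccAATAAA
Bcl2l11: tatgttcttaatgaaTTTTATataAATAAA
In the last 100 nt of the transcript, 2 of the 10 genes held TTTTAAT or TTTTAT, Bcl2l10 and Bcl2l11, against 19.3% of the 6085 transcripts of tested genes. In Bcl2l10 the element started 21 nt before the signal, and in Bcl2l11 it started 9 nt before it. The AATAAA signal stood in the last 100 nt of every one of the 10 transcripts except Bid, and in 65% of the 6085, while both sequences stood in 13%. Of the 10 genes, only 3 reached the 1 FPKM that all of the 6085 had reached, so these shares compare unlike sets. A match describes these letters only and does not show that an element was used.

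The table gives FPKM, the fragments of a gene scaled by its transcript length and by the mapped total of the library, for each gene and library. A gene was tested when it reached 1 FPKM in at least 1 library, which kept 6398 genes, and the test was limma on log2(FPKM + 1) with Benjamini-Hochberg adjustment over those 6398 genes. Of the 10 family genes, 3 were tested (Bcl2l10, Bcl2l1 and Bax), 3 were above 0 without reaching 1 FPKM (Mcl1, Bcl2l11 and Bcl2), and 4 were listed at 0 in all 6 libraries (Bak1, Bok, Bid and Bbc3). Among the 3 tested genes, 1 passed an adjusted p of 0.05 in limma, Bcl2l10, which was lower in Lsm14b-KO, against 21.6% of all tested genes called, 15.2% lower and 6.38% higher. The plot of the 10 genes by library shows how far apart their levels lay.

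**Figure D1:**
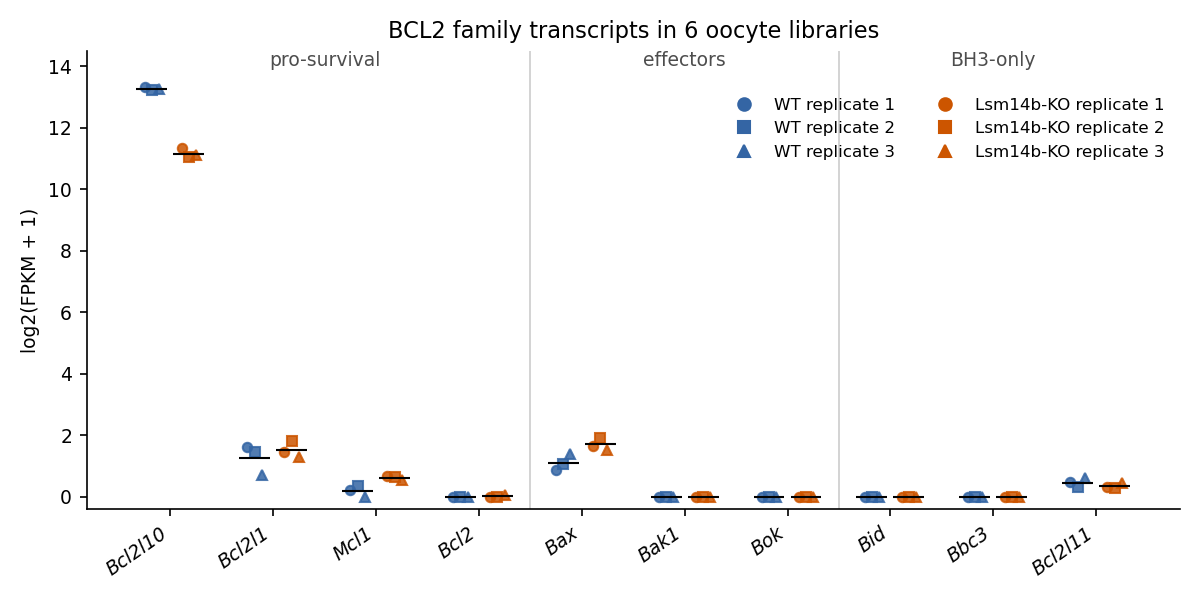
Level of each of the 10 BCL2 family genes as log2(FPKM + 1) in the 3 WT (blue) and 3 Lsm14b-KO (orange) libraries, with a horizontal line at each group mean and the genes ordered by role. Bcl2l10 stood above 11 on this scale in every library and was lower in all 3 Lsm14b-KO libraries, and no other member reached 2.

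The libraries differed in depth and in their totals. Low FPKM values of long genes fell into steps, which gives the size of 1 fragment in each library, and 73.2% to 84.3% of those low values lay within 15% of 1, 2 or 3 fragments. The steps imply about 3890000 to 4430000 mapped fragments in the WT libraries and 5160000 to 8400000 in the Lsm14b-KO libraries. This takes FPKM as scaled by each library's own mapped total. The FPKM sum over all genes was between 1141324 and 1244182 in WT, and 1029728, 564671 and 676656 in Lsm14b-KO. The targeted gene, Lsm14b, had 2.77, 3.98 and 1.72 FPKM in WT and 0, 0 and 0.102 FPKM in Lsm14b-KO. All 10 oocyte markers reached 1 FPKM, with a summed level of 39192 to 50425 FPKM in WT and 26969 to 66229 FPKM in Lsm14b-KO. Most of this sum was Dppa3, with 34582 to 47684 FPKM in WT and 19433 to 63633 FPKM in Lsm14b-KO. Other markers spread differently, such as Bmp15 with 183 to 380 FPKM in WT and 204 to 1482 FPKM in Lsm14b-KO, groups that overlapped. Of 13 cumulus and granulosa cell markers, 5 were listed at 0 in every library (Foxl2, Amh, Inhba, Cyp11a1 and Ptx3). Another 3 reached 1 FPKM (Cyp19a1, Fshr and Inha). The 13 summed to 9.91 to 13.6 FPKM in WT and 6.17 to 10.2 FPKM in Lsm14b-KO. The largest part was Cyp19a1, with 8.26 to 11.5 FPKM in WT and 3.00 to 5.76 FPKM in Lsm14b-KO. Fshr went the other way, with 0.349 to 1.68 FPKM in WT and 1.82 to 2.07 FPKM in Lsm14b-KO, so the sum gives no common direction of these markers. The 6 red blood cell markers were at 0, and the 6 leukocyte markers summed to 0.733 FPKM or less. Among ribosomal protein genes, which every cell uses, 13 of 80 were at 0 in at least 1 library and 3 in all 6, so a gene at 0 is described here only as listed at 0.

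Bcl2l10 had 10292, 9537 and 9787 FPKM in the WT libraries. In the Lsm14b-KO libraries it had 2567, 2103 and 2203 FPKM. Every WT library was above every Lsm14b-KO library, as for 26% of tested genes, and the lowest WT value was 3.71 times the highest Lsm14b-KO value. The means were 9872 ± 385 FPKM in WT and 2291 ± 245 FPKM in Lsm14b-KO (SD, n = 3 each), so that the replicates varied by 3.90% and 10.7% of their mean. Bcl2l10 fell by 2.11 ± 0.24 on the log2 scale (SE), with a 95% interval from -2.67 to -1.55 and an adjusted p of 0.00214 by limma. This is a level 4.32-fold lower in Lsm14b-KO, with an interval from 2.94-fold to 6.36-fold. A two-sided exact permutation test of the 3 against 3 libraries gave p = 0.10, the smallest that this design allows. In a pool of oocytes, fewer contributing cells and less of the transcript per cell cannot be told apart.

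The place of Bcl2l10 among all genes changed as well. Ranked by FPKM it was number 22, 23 and 21 in WT and number 76, 54 and 59 in Lsm14b-KO. It made up 0.827%, 0.814% and 0.857% of the FPKM sum in WT, and 0.249%, 0.372% and 0.326% in Lsm14b-KO. All 3 WT shares were above all 3 Lsm14b-KO shares. The estimated number of fragments behind these values was 39961 to 43128 in WT and 13517 to 18885 in Lsm14b-KO, so counting error is small next to the spread between libraries. Of the 176 genes with a mean of at least 1000 FPKM in WT, 8 had a lower ratio of Lsm14b-KO to WT than Bcl2l10.

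The size of the Bcl2l10 difference depended on how the libraries were scaled. With each library rescaled to the same sum (TPM, a unit in which every library adds up alike), the level was 8329 ± 224 in WT and 3158 ± 621 in Lsm14b-KO (SD, n = 3 each). Bcl2l10 then fell by 1.42 on the log2 scale, 2.67-fold, with an adjusted p of 0.00492 by limma. Quantile normalization gave a log2 fold change of -1.44. With the trend of fold change along transcript length and GC content removed, Bcl2l10 fell by 1.61 on the log2 scale, 3.06-fold, with an adjusted p of 0.000926 by limma. The median of all tested genes moved with the scaling too, from -0.08 as deposited to 0.40 in TPM, 0.07 with quantile normalization and 0.10 once length and GC were corrected for. Measured from that median, the log2 fold change of Bcl2l10 was -2.04 as deposited, -1.82 in TPM, -1.51 with quantile normalization and -1.71 with the length and GC correction. The gene was called lower under all 15 alternatives, with adjusted p from 0.000312 to 0.0291 in limma, and under each of the 6 fits that left out 1 library. The plot of Bcl2l10 by setting shows these values.

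**Figure D2:**
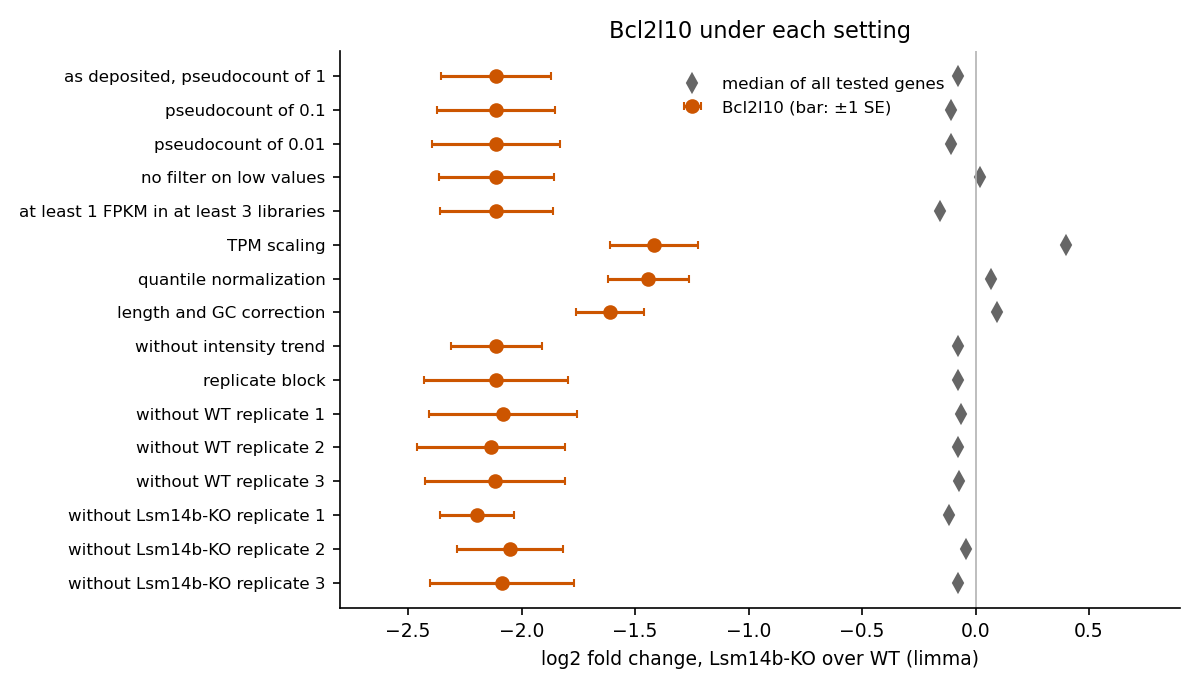
Log2 fold change of Bcl2l10, Lsm14b-KO over WT, by limma (orange points, bars of 1 SE) and the median of all tested genes (grey diamonds) for the values as deposited and under 15 alternatives. Bcl2l10 stayed between -2.20 and -1.42, below the median of all genes in every setting.

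Transcript length went with the direction of change over all genes. The median log2 fold change of tested genes was -0.61 for transcripts of 500 to 1000 nt, -0.44 for 1000 to 1500 nt, 0.16 for 2500 to 4000 nt and 0.29 above 4000 nt. Bcl2l10, at 1220 nt, belongs to the class of 1000 to 1500 nt, in which 23.9% of 945 genes were called lower. The part of length in the Bcl2l10 difference was tested only through the length and GC correction above.

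Of the other pro-survival genes, Bcl2l1 and Mcl1 had values below 3 FPKM, and Bcl2 was listed at 0 in all but 1 library. Bcl2l1 (BCL-XL, the survival factor of many long-lived cells), on chromosome 2 from 152780668 to 152831728 on the minus strand, had 2.11, 1.74 and 0.619 FPKM in WT. In Lsm14b-KO it had 1.76, 2.52 and 1.45 FPKM. The groups overlapped, and the lowest value of all was that of WT replicate 3. The log2 fold change was 0.26 ± 0.29 (SE), with a 95% interval from -0.40 to 0.93 and an adjusted p of 0.505 by limma. Without WT replicate 3 it was -0.02, so that 1 library decided its direction, and in TPM it was 0.72 (adjusted p = 0.152, limma). The deposited locus of Bcl2l1 is shared with Cox4i2. No annotated gene overlaps Bcl2l1 in GENCODE vM21, and no other transcript matched it at 95% identity over 200 nt. Whether the shared locus affected how its reads were assigned was not tested.

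Mcl1 (MCL1, a short-lived pro-survival protein that many cells must keep making), on chromosome 3 from 95658788 to 95663176 on the plus strand, had 0.156, 0.274 and 0 FPKM in WT. In Lsm14b-KO it had 0.589, 0.562 and 0.468 FPKM. All 3 Lsm14b-KO libraries were above all 3 WT libraries, against 10.9% of the 7927 genes that were above 0 but did not reach 1 FPKM. With no filter on low values the difference was 0.44 ± 0.13 on the log2(FPKM + 1) scale (SE), with an adjusted p of 0.103 by limma, and this scale understates the difference of a gene this low. The exact permutation test gave p = 0.10, two-sided. About 2, 4 and 0 fragments stood behind the WT values and about 10, 14 and 13 behind the Lsm14b-KO values, the latter from the deeper libraries.

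Bcl2, the founding member of the family, lies on chromosome 1 from 106538178 to 106714274 on the minus strand. It was listed at 0 in 5 libraries and had 0.0335 FPKM, about 2 fragments, in Lsm14b-KO replicate 3. Its transcript also shares sequence with the annotated gene D630008O14Rik. No fold change is given for it.

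Of the effectors, Bax alone was above 0. Bax (BAX, which inserts into the outer mitochondrial membrane when activated), on chromosome 7 from 45461697 to 45466898 on the minus strand, had 0.844, 1.09 and 1.61 FPKM in WT. In Lsm14b-KO it had 2.18, 2.81 and 1.90 FPKM. All 3 Lsm14b-KO libraries were above all 3 WT libraries, which held for 19.1% of tested genes. The means were 1.18 ± 0.389 and 2.29 ± 0.467 FPKM (SD, n = 3 each).

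Bax did not pass the test as deposited, with a log2 fold change of 0.60 ± 0.22 (SE), a 95% interval from 0.10 to 1.10 and an adjusted p of 0.0813 by limma. It passed as higher in Lsm14b-KO in TPM, with a log2 fold change of 1.06 and an adjusted p of 0.0486 by limma, where 13% of tested genes were called higher. It also passed after the length and GC correction, with a log2 fold change of 1.08 and an adjusted p of 0.0147 by limma, where 10.1% were. Over all 15 alternatives the adjusted p of Bax in limma ran from 0.0147 to 0.232. The Bax transcript is 867 nt, and about 2, 3 and 4 fragments in WT against 7, 14 and 11 in Lsm14b-KO carried these values. Its locus overlaps the annotated gene Gm45808 on the same strand, so part of its reads cannot be told apart from that gene.

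Bak1 (BAK, the effector that sits in the outer membrane before activation), on chromosome 17 from 27019810 to 27029009 on the minus strand, was listed at 0 in all 6 libraries. Bok, a less studied relative of both, on chromosome 1 from 93685660 to 93695764 on the plus strand, was listed at 0 as well. Over all genes, 9930 were listed at 0 in all 6 libraries. Transcripts of Bak1 share sequence with Ggnbp1, which the deposited table places in the same locus.

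Of the BH3-only genes, Bcl2l11 alone was above 0. Bcl2l11 (BIM, which can bind every pro-survival member), on chromosome 2 from 128126038 to 128162547 on the plus strand, had 0.390, 0.245 and 0.513 FPKM in WT. In Lsm14b-KO it had 0.252, 0.229 and 0.360 FPKM. The groups overlapped, and no Lsm14b-KO value was above the highest WT value in FPKM. With no filter on low values the difference was -0.11 ± 0.12 on the log2(FPKM + 1) scale (SE), with an adjusted p of 0.606 by limma, and the exact permutation test gave p = 0.30, two-sided. In TPM the difference of Bcl2l11 turned to 0.07. The estimated fragments were 5 to 10 in WT and 6 to 15 in Lsm14b-KO.

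Bid, which caspase 8 cleaves to link death receptors to mitochondria, lies on chromosome 6 from 120891930 to 120916853 on the minus strand and was listed at 0 in all 6 libraries. Bbc3 (PUMA, a p53 target with a known part in oocyte loss after DNA damage), on chromosome 7 from 16308393 to 16318205 on the plus strand, was listed at 0 in all 6 libraries too. The plot of estimated fragments shows how few fragments lie behind the 5 low members that were above 0.

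**Figure D3:**
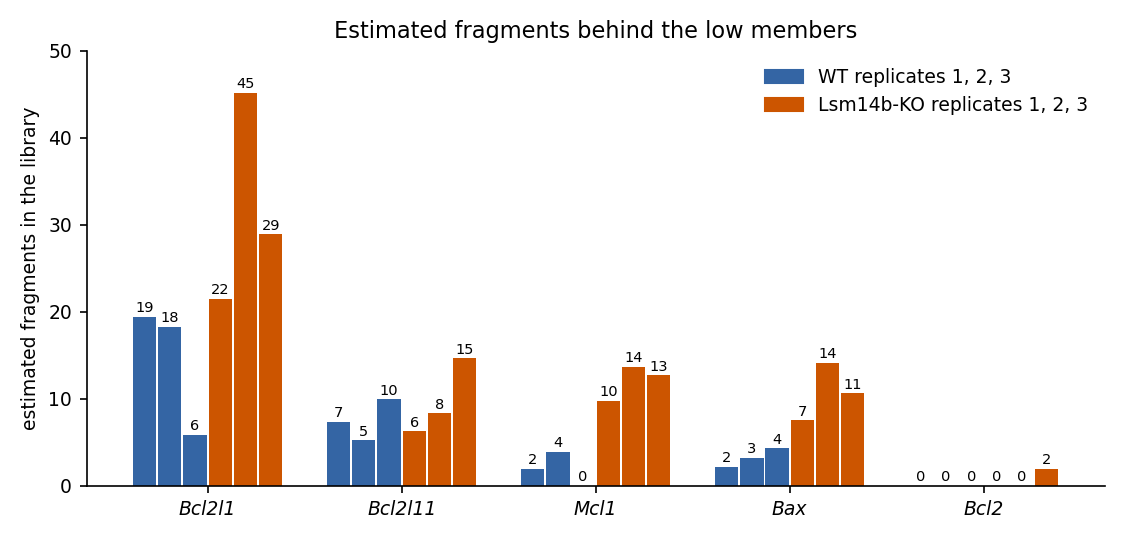
Estimated number of fragments behind Bcl2l1, Bcl2l11, Mcl1, Bax and Bcl2 in each of the 3 WT (blue) and 3 Lsm14b-KO (orange) libraries, ordered by replicate number within each group. Bcl2l1 reached 45 fragments in Lsm14b-KO replicate 2, while Bcl2l11, Mcl1 and Bax had 15 or fewer in every library.

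Set against the rest of the family, Bcl2l10 made up nearly the whole signal. The other 9 members together summed to 3.50, 3.35 and 2.74 FPKM in WT and to 4.78, 6.12 and 4.21 FPKM in Lsm14b-KO. Bcl2l10 was 99.7% or more of the summed FPKM of the 10 genes in each of the 6 libraries. The ratio of Bcl2l10 to Bax, both per length, was 12192, 8745 and 6093 in WT and 1179, 749 and 1162 in Lsm14b-KO. The ratio was thus higher in every WT library than in any Lsm14b-KO library. This follows from Bcl2l10 being lower and Bax higher in Lsm14b-KO without overlap, so it is no separate result. The Bax values rest on 2 to 14 estimated fragments. Among the remaining members the order Bax, Bcl2l1, then Mcl1 and Bcl2l11 held by mean FPKM in Lsm14b-KO, where Bax at 2.29 ± 0.467 FPKM and Bcl2l1 at 1.91 ± 0.552 FPKM do not differ beyond their spread. In WT Bcl2l1 averaged 1.49 ± 0.776 FPKM and Bax 1.18 ± 0.389 FPKM (SD, n = 3 each), which do not differ beyond their spread.

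The genes whose pattern over the 6 libraries was closest to that of Bcl2l10 were sought among 2559 genes with a mean of at least 5 FPKM, by Pearson's r of log2(FPKM + 1) over the 6 libraries. This r is a description, since the libraries of a group share their genotype, and 62 genes exceeded 0.99. Pdcl3 was closest (r = 0.999), with 67.0, 56.3 and 60.9 FPKM in WT and 4.99, 2.97 and 3.93 FPKM in Lsm14b-KO. Sft2d1 came next (r = 0.999), with 60.5, 53.2 and 58.8 FPKM in WT and 5.28, 3.81 and 3.37 FPKM in Lsm14b-KO. The third was Gm5434 (r = 0.998), with 1142, 1073 and 1144 FPKM in WT and 394, 294 and 322 FPKM in Lsm14b-KO, a gene that shares sequence with Ube2f and is therefore uncertain. In all of these, as in Bcl2l10, every WT library was above every Lsm14b-KO library, as for 26% of tested genes. In each of them Lsm14b-KO replicate 1 was the highest of its group. The 3 genes were picked by this r, so their likeness to Bcl2l10 follows from the choice and is no separate result.

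Genes that act with the BCL2 family were read off the same fit in 5 lists. Of 17 other BCL2 family genes, 7 were listed at 0 in all libraries, including the pro-survival genes Bcl2l2 and Bcl2a1a to Bcl2a1d, and 5 were tested. None of the 5 passed an adjusted p of 0.05 in limma, and 1 had an unadjusted p under 0.05, Becn1, an autophagy protein with a BH3 motif. Over all genes, 2518 of the 6398 tested had an unadjusted p under 0.05 in limma. Becn1 had 1.16, 2.49 and 0.827 FPKM in WT and 3.73, 2.85 and 2.08 FPKM in Lsm14b-KO, groups that overlapped, with an adjusted p of 0.126 by limma. The median log2 fold change of the 5 was 0.03, against -0.08 for all tested genes. The BH3-only genes Bad, Bmf, Hrk and Pmaip1 did not reach 1 FPKM in any library, and Bik, which resides at the endoplasmic reticulum, had 0.325 to 4.14 FPKM in WT and 0.678 to 2.22 FPKM in Lsm14b-KO.

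Of 11 genes of mitochondrial release and the apoptosome, 7 were tested and 3 were called lower, none higher, against 15.2% of all tested genes called lower. Their median log2 fold change was -0.63, against -0.08 for all tested genes. The 3 called genes include Endog, which reached 1 FPKM only in WT replicate 3. Endog thus entered the test through the group where it was high. Vdac2, an outer-membrane channel that holds BAK and recruits BAX, had 344, 360 and 261 FPKM in WT and 43.3, 13.5 and 19.6 FPKM in Lsm14b-KO. Vdac2 fell by 3.76 ± 0.44 on the log2 scale (SE, adjusted p = 0.00219, limma) and was called under all 15 alternatives. Every WT library of Vdac2 was more than 6 times the highest Lsm14b-KO library. Vdac2 has 1 near-identical copy, Gm7832, and overlaps Comtd1. Its paralogs Vdac1 and Vdac3 did not pass the test, with log2 fold changes of 0.33 and -0.63.

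Cycs, cytochrome c itself, had 177, 164 and 145 FPKM in WT and 108, 19.9 and 32.0 FPKM in Lsm14b-KO. Cycs fell by 1.95 ± 0.57 on the log2 scale (SE, adjusted p = 0.0449, limma). Lsm14b-KO replicate 1 lay well above the other two Lsm14b-KO libraries for Cycs, and of the 6 fits that left out 1 library it passed only in the one without that replicate. Cycs passed under 6 of the 15 alternatives and lost its call in TPM (adjusted p = 0.0511, limma) and after quantile normalization (adjusted p = 0.0725, limma), among others, with adjusted p up to 0.156. Cycs has 4 near-identical annotated copies, so its values are uncertain. Endog, a mitochondrial nuclease, had 0.802, 0.583 and 1.62 FPKM in WT, and 8.77e-05, 1.48e-05 and 0.191 FPKM in Lsm14b-KO. Endog fell by 0.88 ± 0.25 on the log2(FPKM + 1) scale (SE, adjusted p = 0.0400, limma), and it too passed only without Lsm14b-KO replicate 1 among the leave-one-out fits. Endog passed under 5 of 14 alternatives and lost its call in TPM (adjusted p = 0.075, limma) and after the length and GC correction (adjusted p = 0.128, limma), among others. Its transcripts share sequence with Spout1. Apaf1 and Casp9, which form the apoptosome with cytochrome c, had at most 0.484 and 0.208 FPKM in any library and were not tested.

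Of 14 caspase and death receptor genes, 6 were tested and 2 were called lower, none higher, against 15.2% of all tested genes called lower. Their median log2 fold change was -0.24, against -0.08 for all tested genes. Casp8, the initiator caspase below death receptors, had 93.3, 87.8 and 63.0 FPKM in WT and 52.7, 11.0 and 18.8 FPKM in Lsm14b-KO. Casp8 fell by 1.80 ± 0.53 on the log2 scale (SE, adjusted p = 0.0459, limma), and of the leave-one-out fits it passed only in the one without Lsm14b-KO replicate 1. Casp8 passed under 6 of the 15 alternatives and lost its call in TPM (adjusted p = 0.058, limma) and after quantile normalization (adjusted p = 0.0784, limma), among others, with adjusted p up to 0.156. Fas, a death receptor upstream of caspase 8, had 1.45, 2.16 and 0.996 FPKM in WT and 0, 0.106 and 0 FPKM in Lsm14b-KO. Fas fell by 1.27 ± 0.23 on the log2(FPKM + 1) scale (SE, adjusted p = 0.00977, limma). No Lsm14b-KO library reached any WT library, as for 26% of tested genes. Fas, counted among the 2 called genes, reached 1 FPKM only in WT libraries. It thus entered the test through the group where it was high. About 7, 12 and 5 fragments stood behind the WT values of Fas and 0, 1 and 0 behind the Lsm14b-KO values. The call for Fas was lost after the length and GC correction (adjusted p = 0.0806, limma) and without Lsm14b-KO replicate 3 (adjusted p = 0.0557, limma). Cflar, an inhibitor of caspase 8 with an unadjusted p under 0.05, had 0.163, 0.323 and 0.656 FPKM in WT and 5.35, 1.11 and 1.22 FPKM in Lsm14b-KO. Every Lsm14b-KO library of Cflar was above every WT library, as for 19.1% of tested genes, with a log2 fold change of 1.18 ± 0.42 (SE) and an adjusted p of 0.0776 by limma. Cflar reached 1 FPKM only in Lsm14b-KO libraries, so it entered the test through the group where it was high. In TPM Cflar passed as higher in Lsm14b-KO, with a log2 fold change of 1.50 and an adjusted p of 0.0284 by limma. Bid, the substrate of caspase 8 named above, was listed at 0.

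Of 6 inhibitor of apoptosis genes, 4 were tested. Of these 4, 1 had an unadjusted p under 0.05 in limma, Birc2, against 2518 of all 6398 tested genes. None of the 4 passed in limma, and their median log2 fold change was 0.02. Birc5 (survivin, a subunit of the chromosomal passenger complex), singled out after its values were seen, was the most abundant of them at 3363 to 3679 FPKM in WT and 2692 to 5814 FPKM in Lsm14b-KO, groups that overlapped. In TPM Birc5 passed as higher in Lsm14b-KO, with a log2 fold change of 0.84 and an adjusted p of 0.0179 by limma. Birc2 passed in TPM too (adjusted p = 0.0419, limma), where 13% of tested genes were called higher. Of 19 regulators of BCL2 family genes and proteins, 8 were tested and none passed in limma, with a median log2 fold change of 0.48. Of these 8, 2 had an unadjusted p under 0.05 in limma, Gsk3b and Trp63, against 2518 of all 6398 tested genes. Trp63, the p53 relative that oocytes use to respond to DNA damage, had 0.406, 0.595 and 0.343 FPKM in WT and 1.23, 0.985 and 1.59 FPKM in Lsm14b-KO. Those groups did not overlap, as for 19.1% of tested genes in this direction, and the adjusted p of Trp63 was 0.0546 by limma. Gsk3b, a kinase that marks MCL1 for degradation, had 0.165 to 0.274 FPKM in WT and 0.685 to 1.09 FPKM in Lsm14b-KO, with an adjusted p of 0.0541 by limma. Birc2, Trp63 and Gsk3b reached 1 FPKM only in Lsm14b-KO libraries, so each entered the test through the group where it was high. The plot of the pathway genes sets these beside the tested members.

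**Figure D4:**
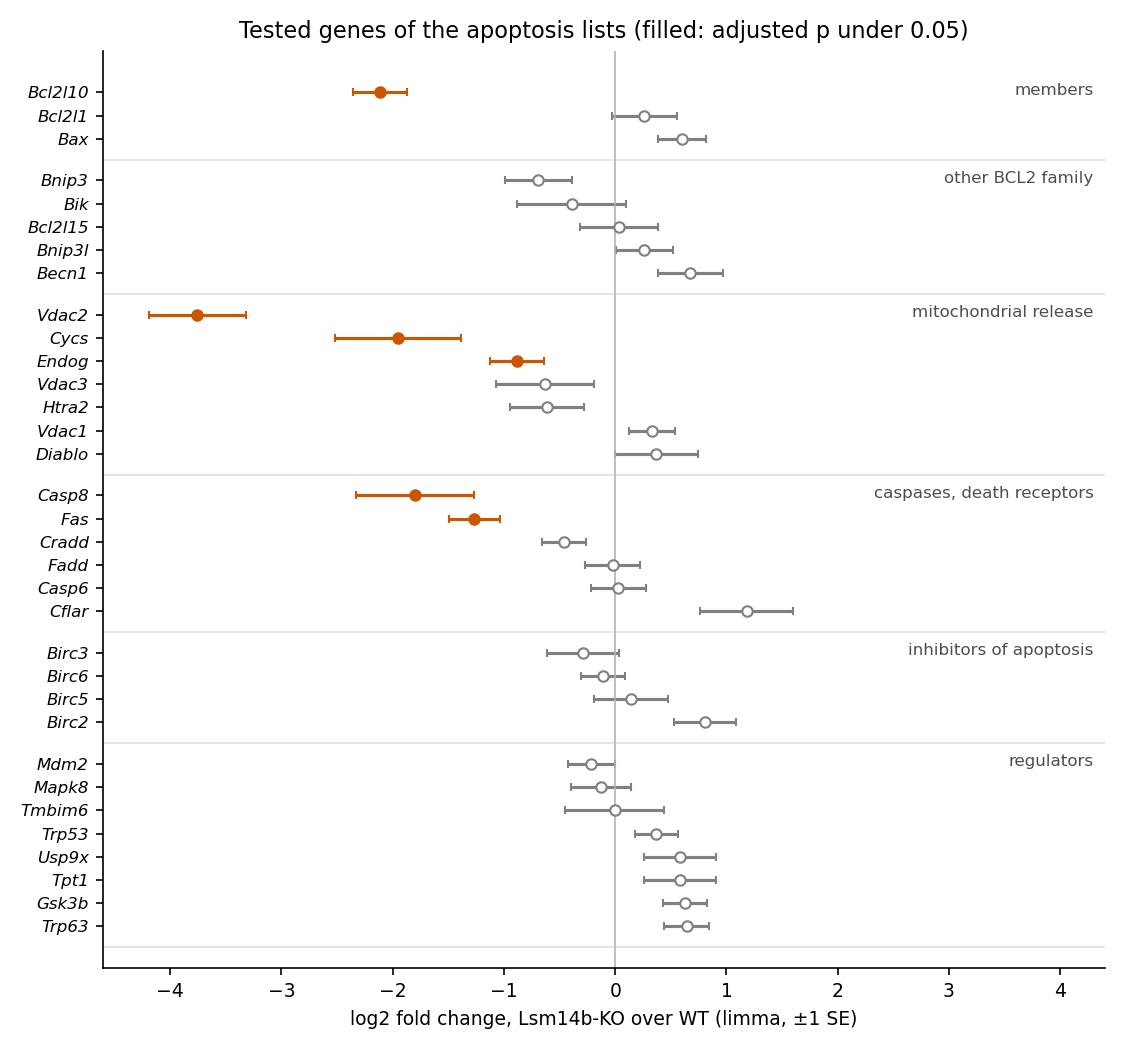
Log2 fold change, Lsm14b-KO over WT, of the tested members and the tested genes of the 5 apoptosis lists by limma on log2(FPKM + 1), with bars of 1 SE and filled points for an adjusted p under 0.05. The filled points are Bcl2l10, Vdac2, Cycs, Endog, Casp8 and Fas, and all of them lie below 0. Endog and Fas reached 1 FPKM only in WT libraries.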

How the data were processed

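Each library was built by Smart-seq2 amplification of RNA from 20 oocytes, and paired reads of 150 bp were obtained on an Illumina instrument. Which library kit was used is given inconsistently, and strandedness is not stated. The authors aligned reads to mm10 with TopHat2 (2.0.13) and computed the deposited FPKM values with Cufflinks (2.2.1); the annotation is not given in the sources used here. The deposited log2 fold changes, p-values and q-values are the authors' own Cuffdiff comparison and were not used. A spreadsheet had turned 27 symbols into dates.

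Groups and replicate numbers came from the sample titles and genotypes. FPKM was tested with limma (3.58.1, R 4.3.3; lmFit and eBayes with trend) on log2(FPKM + 1), pseudocount 1, for the 6398 genes that reached 1 FPKM in any library, two-sided, with Benjamini-Hochberg adjustment over all of them at 0.05. FPKM is taken as relative to each library's mapped total, so a change of abundant transcripts shifts all others. Fragments were estimated as FPKM times transcript length less 200 nt, divided by the size of 1 step per library, taken from transcripts of at least 2500 nt. The authors' effective lengths are not given, so these are approximations, and they cover counting only. Coordinates, transcripts and 3′ ends are from GENCODE vM21 (GRCm38, the assembly of mm10). Near-identical copies were sought with blastn (2.17.0) at 95% identity over 200 nt.

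Named genes were Lsm14b, the 10 members, from each pathway list at most 5 genes with the largest change among those past the threshold, and the 3 genes most like the most abundant member. The values of Becn1, Bik, Birc5, Cflar, Gsk3b, Trp63 and the other pathway genes named without passing the test were singled out after their values were seen. The members and lists were chosen with earlier results of these data known, so no list is independent evidence of a direction. The fit was also run on simulated data with independent values of equal spread in both groups. That setting differs from these libraries, so it gives no assurance about the calls. Alternatives changed the pseudocount, the filter, the scaling, the intensity trend and the replicate block, and left out each library.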

Additional observations from a re-analysis of the deposited data

How the results depend on the processing

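Bcl2l10 kept its direction and its call under all 15 alternatives. Over the 12 named genes that were tested, 146 values under an alternative kept their direction and side of the threshold, 29 lost their call and 2 gained one. Of the values of Mcl1 and Bcl2l11, which were not tested, 12 moved by less than the replicate spread and 6 by more. Bcl2l1 reversed, and with 1 library left out it ran from -0.020 without WT replicate 3 to 0.45 without WT replicate 1. The count of all genes past the threshold was 1383, and 720 with no filter on low values, where more genes were tested. It ran from 315 to 2898 when 1 library was left out. Called genes were higher in Lsm14b-KO in 29.5% of cases as deposited, 63.2% in TPM, 42.4% after quantile normalization and 44.7% after the length and GC correction.

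The members past the threshold numbered 2 in TPM and 2 after the length and GC correction, in place of 1, Bax being the addition. Mitochondrial release genes past it numbered 3, but 1 with a pseudocount of 0.01, with no filter or in TPM, 2 with 1 FPKM required in 3 libraries, after quantile normalization or after the length and GC correction, and 1 to 4 without 1 library. Caspase and death receptor genes numbered 2, but 1 with a pseudocount of 0.01, with no filter, with 1 FPKM required in 3 libraries, after quantile normalization or after the length and GC correction, and 0 to 3 without 1 library. In TPM they were again 2, but Fas and Cflar, not Casp8. Inhibitor of apoptosis genes numbered 0, but 2 in TPM, Birc2 and Birc5, and 1 after quantile normalization. Other BCL2 family genes numbered 0, but 2 in TPM and 1 after quantile normalization, and 0 to 1 without 1 library. Regulators numbered 0, but 1 with a pseudocount of 0.1 or 0.01, 3 in TPM, 1 after the length and GC correction, and 0 to 3 without 1 library. The cause was not tested.

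The deviations of same-numbered WT and Lsm14b-KO libraries correlated at 0.19, -0.13 and 0.02, so the numbers are not taken as pairs. With the replicate number as a block, 1244 genes passed, and 1 member did. Without 1 library of a group, the fit assumes that the rest vary alike. Depth limits the low members: at 15 fragments or fewer a difference in Bax, Mcl1, Bcl2l11 or Bcl2 smaller than the spread shown could not be detected.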
